A study of Mus musculus with 6 samples.

Results

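The genes of the mesothelium, the single sheet of cells that lines the outer surface of the lung, were followed in whole lung buds of mouse embryos at stage E12.5. The set held Wt1, Upk3b, Upk1b, Msln, Lrrn4, Muc16, Podxl, Gpm6a and Bnc1. They were taken by gene symbol as genes known from mesothelium, through probe sets (groups of array probes summarised into 1 value) annotated with exactly 1 symbol. All 9 were measured, each by 1 probe set, among 22180 genes in all. Mutant lungs had the genotype Fzd2Flox/Flox with Shh cre/+ (3 arrays), and control lungs had Shh cre/+ alone (3 arrays), so both groups carried 1 Cre allele at Shh. The input per array was 100 ng of total RNA. The labels call the arrays biological replicates without saying whether 1 lung or a pool was used. The study asked which genes depend on Fzd2, a receptor for Wnt ligands, in the lung epithelium. Shh is expressed in that epithelium, so the Cre acts there by design, and the mesothelium lies outside it.

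The mesothelium arises from the lining of the body cavity and covers lung, heart, liver and gut. In the embryonic lung it is a source of signals to the tissue beneath, among them the growth factor Fgf9, and some of its cells enter the lung and contribute to its mesenchyme. Wt1, a zinc finger transcription factor, marks the mesothelium of all these organs. The other genes encode proteins of its surface (Upk3b, Upk1b, Msln, Muc16, Podxl, Gpm6a and Lrrn4) or another zinc finger protein (Bnc1). Several are also known elsewhere: Podxl in blood vessels and kidney podocytes, Gpm6a in neurons, Upk1b in the lining of the bladder, and Bnc1 in squamous epithelia.

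Most mesothelium genes had slightly higher means in mutant lungs, but no single gene passed the test. Of the 9 genes, 8 had a higher mean in mutant lungs, with a median difference of 0.14 on the log2 scale, beside a median of 0.01 and 54.8% of genes with a higher mean over all 22180 genes. Limma called 0 of the 9 at an adjusted p under 0.05, where it called 0.0631% of all genes (14). Gpm6a and Upk3b, 2 of the 9, were higher at an unadjusted p under 0.05, and 0 were lower, where 7.34% of all genes were higher and 5.15% lower by that rule. In 3 of the 9 (Wt1, Upk3b and Gpm6a) every mutant array lay above every control array, as in 10.6% of all genes, and in 0 every mutant array lay below, as in 8.83% of all genes. In whole lung RNA, a change in the number of mesothelial cells and a change in RNA per cell cannot be told apart.

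Over all 41345 probe sets the arrays had medians of 7.29 to 7.32. The lung factors Nkx2-1 and Foxf1 were measured in all 6 arrays. Foxf1 lay between 12.03 and 12.20 with overlap of the groups. Nkx2-1 lay at 10.05 to 10.09 in mutant lungs, below all controls at 10.41 to 10.57. Its difference was -0.41 (SE 0.05, adjusted p = 0.0749 by limma). Fzd2 itself averaged 9.43 ± 0.32 in mutant and 9.71 ± 0.13 in control lungs (log2, SD, n = 3 each), a difference of -0.29 that limma did not call (adjusted p = 0.475) and that was -0.10 without mutant replicate 2. Mutant replicate 1 (9.67) lay inside the control range of 9.57 to 9.82, so that gene is a weak check of the labels. Single arrays stood apart in markers of other tissues. Mutant replicate 1 was the highest by over 1 log2 unit in 4 of 7 heart muscle genes, mutant replicate 2 in 7 of 7 adipose genes, and control replicate 1 in 8 of 9 adult small intestine genes. Of the 7 liver genes, mutant replicate 3 was the highest by that margin in Afp (alpha-fetoprotein, 9.53 against at most 8.10 elsewhere) and control replicate 1 in Apoa1 (apolipoprotein A-I, 9.83 against at most 8.50). Heart, visceral fat, gut and liver are themselves covered by mesothelium.

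Gpm6a encodes a membrane glycoprotein of the proteolipid family, best known from growing neurites. Its log2 values were 10.09, 9.999 and 10.004 in mutant replicates 1 to 3, against 9.58, 9.66 and 9.76 in control replicates 1 to 3. The mutant arrays sat close together and all above the controls. The log2 difference was 0.37 (SE 0.06, 95% interval 0.23 to 0.51, 1.29-fold), which limma did not call (adjusted p = 0.109, unadjusted p = 0.000375). With single arrays left out it lay between 0.33 and 0.42, and it passed the threshold under none of the alternatives tried (lowest adjusted p = 0.0781, highest 0.369). By exact permutation of the 6 arrays (two-sided) p was 0.1, the smallest that 3 arrays against 3 allow. Markers of neurons and neural crest differed in the same direction, by 0.009 to 0.38. All 8 measured had higher means in mutant lungs (median 0.09), beside 54.8% of all genes. Of the 8, 2 were higher at an unadjusted p under 0.05, as were 7.34% of all genes. The mean of these 8 genes differed from the control mean by 0.11, 0.05 and 0.23 in mutant replicates 1 to 3. In control replicates 1 to 3 it differed by 0.04, -0.03 and -0.01. The largest difference among the 8 was that of Stmn2, a microtubule regulator of neurons. It had 8.81, 8.62 and 8.99 in mutant and 8.41, 8.47 and 8.41 in control lungs (difference 0.38, SE 0.09, adjusted p = 0.212). The part of neurons in the Gpm6a difference was not tested.

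Upk3b, an uroplakin that marks the mesothelium in mouse organs, had log2 values of 10.76, 10.61 and 10.75 in mutant lungs and 10.52, 10.57 and 10.47 in control lungs. The groups did not overlap, although mutant replicate 2 and control replicate 2 were close. The difference was 0.19 (SE 0.06, 95% interval 0.05 to 0.33, 1.14-fold, adjusted p = 0.314 by limma), and it stayed between 0.15 and 0.24 in all alternatives. Upk1b, a tetraspanin that pairs with uroplakins of the Upk3 type in the bladder, was the most scattered of the 9 genes. It had 9.65, 9.57 and 9.64 in mutant lungs, against 9.90, 9.46 and 8.89 in control replicates 1 to 3. The mutant arrays lay within the control range. The difference of 0.20 (SE 0.22, 95% interval -0.31 to 0.71, adjusted p = 0.724) turned to -0.06 without control replicate 3 and was 0.44 without control replicate 1, the array that stood apart in intestine genes.

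Lines of promoter sequence are given for Upk3b and Gpm6a, the 2 genes with the smallest p, and for Lrrn4, whose difference was below 0 without 1 array. RefSeq's promoter table for GRCm38.p6 held 5 of the 9 genes (Lrrn4, Upk3b, Bnc1, Gpm6a and Muc16) with 6 start sites. Each line is the 250 bases before the start, 5′ to 3′ on the gene's strand, at chr5:136038246-136038495 (plus strand), chr8:54779184-54779433 (plus strand, the first of 2 Gpm6a starts) and chr2:132880863-132881112 (minus strand). Capitals mark matches on either strand to GNGNGGGNG, a G-rich pattern of the kind bound by Wt1 and Egr factors, or to GGAATG, the pattern of TEAD factors, which act with Yap.
Upk3b: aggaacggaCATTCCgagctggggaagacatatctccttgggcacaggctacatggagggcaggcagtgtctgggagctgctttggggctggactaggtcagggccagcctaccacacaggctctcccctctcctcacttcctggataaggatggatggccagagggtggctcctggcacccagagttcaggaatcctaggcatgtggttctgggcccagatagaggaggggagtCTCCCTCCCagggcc
Gpm6a: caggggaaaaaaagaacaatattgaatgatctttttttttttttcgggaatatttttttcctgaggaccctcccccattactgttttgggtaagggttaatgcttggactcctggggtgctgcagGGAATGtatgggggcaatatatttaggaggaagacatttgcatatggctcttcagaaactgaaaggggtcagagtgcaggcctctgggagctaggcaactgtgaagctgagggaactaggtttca
Lrrn4: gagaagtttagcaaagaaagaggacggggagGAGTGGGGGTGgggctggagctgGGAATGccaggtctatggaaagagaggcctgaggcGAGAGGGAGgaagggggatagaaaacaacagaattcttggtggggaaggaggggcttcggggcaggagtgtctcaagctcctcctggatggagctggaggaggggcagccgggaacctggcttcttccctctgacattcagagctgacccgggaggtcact

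The Upk3b window held 1 match to the G-rich pattern, starting 15 bases before the start, and 1 to the TEAD pattern, 241 bases before it. The Gpm6a window held 0 and 1, and that of Lrrn4 held 3, of which a pair overlap each other, and 1. Over all 6 windows of these genes, 4 held the G-rich pattern and 3 the TEAD pattern, beside 35.8% and 12.6% of the 32851 windows in the table. These are matches of letters only.

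**Figure D1:**
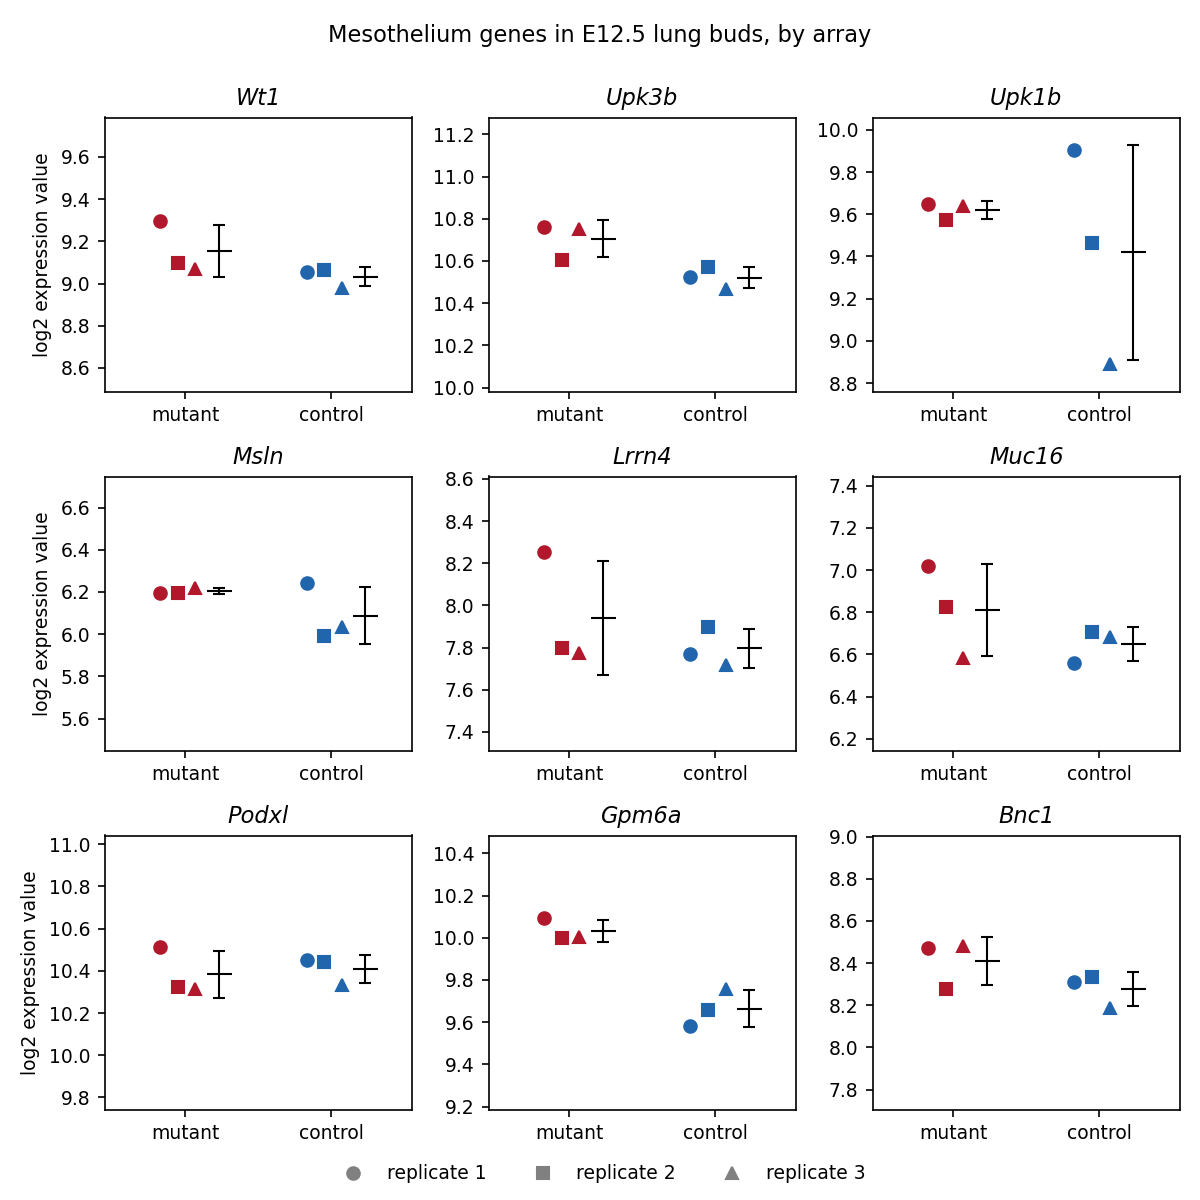
Log2 expression values of the 9 mesothelium genes by array (vertical axes, each spanning at least 1.3 log2 units), with mutant lungs in red on the left of control lungs in blue and a marker shape for each replicate; bars give the mean and SD (n = 3). All mutant arrays lie above all controls for Wt1, Upk3b and Gpm6a, Upk1b is spread from 8.89 to 9.90 in control lungs, and Lrrn4 is set apart by mutant replicate 1 at 8.25.

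Wt1, the transcription factor of the set, was at 9.30, 9.10 and 9.07 in mutant replicates 1 to 3, against 9.06, 9.06 and 8.98 in control replicates 1 to 3. The groups did not overlap, but mutant replicates 2 and 3 lay just above the highest control. Its difference was 0.12 (SE 0.07, 95% interval -0.04 to 0.28, adjusted p = 0.501 by limma) and became 0.05 without mutant replicate 1. Bnc1 had 8.47, 8.28 and 8.48 in mutant and 8.31, 8.33 and 8.19 in control lungs, with mutant replicate 2 inside the control range (difference 0.13, SE 0.07, adjusted p = 0.483). Without control replicate 3 the Bnc1 difference was 0.09, and without both control replicate 1 and mutant replicate 2 it was 0.22.

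Msln encodes mesothelin, a surface glycoprotein, and Muc16 the large mucin it binds. Msln had 6.19, 6.20 and 6.22 in mutant lungs, and 6.24, 5.99 and 6.03 in control lungs. It was the only one of the 9 genes whose mean lay in the lowest 30% of all genes tested, and its highest array was control replicate 1 (difference 0.12, SE 0.07, adjusted p = 0.529). The Msln difference was 0.19 without control replicate 1 and 0.07 without control replicate 2. For Muc16 the values were 7.02, 6.82 and 6.58 in mutant lungs, against 6.56, 6.71 and 6.68 in control lungs. Mutant replicate 3 lay within the control range and replicates 1 and 2 above it (difference 0.16, SE 0.11, adjusted p = 0.558), and the difference was 0.06 without mutant replicate 1 and 0.27 without mutant replicate 3.

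Lrrn4, a leucine-rich repeat protein of the cell surface, had 8.25, 7.80 and 7.77 in mutant lungs and 7.77, 7.90 and 7.72 in control lungs. A single array, mutant replicate 1, carried its difference of 0.14 (SE 0.13, adjusted p = 0.655), which was -0.010 without that array and 0.23 without mutant replicate 3. Podxl, a sialomucin, was the 1 gene with a lower mean in mutant lungs. It had 10.51, 10.32 and 10.31 in mutant lungs, against 10.45, 10.44 and 10.33 in control lungs, and the groups overlapped. Its difference was -0.03 (SE 0.07, 95% interval -0.19 to 0.14, adjusted p = 0.900), and it was above 0, by under 0.03, in 4 of the alternatives, and -0.09 without mutant replicate 1. Podxl is abundant in endothelium, whose 10 markers had 3 higher and 7 lower means (median -0.02), beside 54.8% of all genes with a higher mean. The part of endothelium in the Podxl values was not tested.

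**Figure D2:**
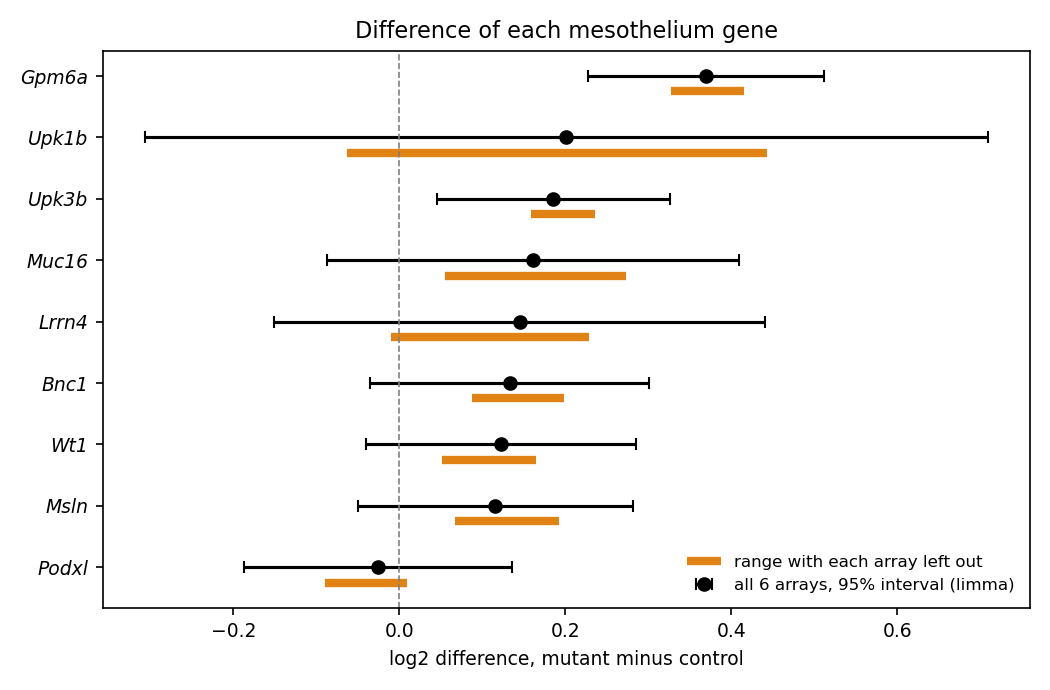
Log2 difference, mutant minus control, of each mesothelium gene (points) with its 95% interval from limma (black bars, 3 mutant and 3 control arrays), above the range of the difference when each of the 6 arrays is left out (orange). The intervals of Gpm6a (0.23 to 0.51) and Upk3b (0.05 to 0.33) lie above 0 before adjustment over all genes, and the orange ranges of Upk1b, Lrrn4 and Podxl cross 0.

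Mutant replicate 1 stood out among the arrays. It was the highest of the 6 arrays in 6 of the 9 genes (Wt1, Upk3b, Lrrn4, Muc16, Podxl and Gpm6a), and 7 of its 9 values lay above all controls, against 4 in each of the other two mutant arrays. The mean of the 9 genes differed by 0.27, 0.09 and 0.11 log2 units from the control mean in mutant replicates 1 to 3, against 0.06, 0.03 and -0.09 in control replicates 1 to 3. At the other end, control replicate 3 was the lowest array in 5 of the 9 genes. Without mutant replicate 1 the median difference of the 9 genes was 0.10, with 7 of 9 higher means, and without control replicate 3 it was 0.09, also with 7 of 9. Leaving out other arrays gave medians up to 0.20. Between them, these fits called 0 of the 9 genes by limma, with 1 to 4 at an unadjusted p under 0.05. Over all 22180 genes, 1797 to 3084 had such a p in these fits. Without control replicate 1 it was 4 of the 9 and 3084 of all genes.

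Mutant replicate 1 was also the array with heart muscle transcripts. Myh6, the atrial myosin heavy chain, was at 9.25, 7.05 and 6.99 in mutant replicates 1 to 3, against 6.82, 7.09 and 6.96 in control lungs. Myl7, an atrial myosin light chain, stood at 11.20 there, against at most 9.18 in any other array, and Tnnt2, cardiac troponin T, at 10.59 against at most 9.17. Nppa and Myl4, named after their values were seen, were at 7.69 and 8.47 in that array, within 0.1 of the next highest. Nkx2-5, also named with its values seen, was higher in all mutant arrays (8.31, 8.24 and 8.28) than in all controls (8.15, 8.12 and 8.01). Its difference was 0.18 (SE 0.06, adjusted p = 0.290 by limma). The mean of the 7 heart genes lay 1.15 above the control mean in mutant replicate 1, and between -0.03 and 0.06 in the other arrays. Whether mesothelium of the heart added to the values of the 9 genes in that array was not tested. Without that array, the differences were 0.34 for Gpm6a, 0.16 for Upk3b, 0.05 for Wt1, 0.06 for Muc16 and -0.010 for Lrrn4.

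The arrays with adipose and intestine transcripts did not carry the highest mesothelium values as a set. Mutant replicate 2, where the fatty acid carrier gene Fabp4 was at 12.92, was the highest array in 0 of the 9 genes. Fabp4 was next highest in control replicate 3 (8.52, against at most 6.73 in the remaining arrays), the lowest array in 5 of the 9 genes. Control replicate 1, where the lysozyme gene Lyz1 was at 10.96 against at most 6.05, was the highest in 2 (Upk1b and Msln) and the lowest in 2 (Muc16 and Gpm6a). Its mean of the 9 genes, 0.06 above the control mean, was the highest of the controls. Whether mesothelium of fat or gut added to the values was not tested. Mutant replicate 3, the array highest in Afp, was the highest in 1 of the 9 (Bnc1), and without it the median difference was 0.16, with 9 of 9 higher means. Without both mutant replicate 2 and control replicate 1 the median difference was 0.20, and all 9 genes had higher means in mutant lungs. Limma called 0 of the 9, with 5 at an unadjusted p under 0.05. In 6 every remaining mutant array lay above every remaining control, which 2 arrays against 2 meet more readily than 3 against 3. No share over all genes is set beside these counts, so they cannot be compared with those from all 6 arrays. Epithelial markers had the opposite direction: all 11 had lower means in mutant lungs (median -0.29). Their list means, relative to the controls, were -0.20, -0.36 and -0.35 in mutant replicates 1 to 3, against -0.02, 0.07 and -0.05 in control replicates 1 to 3. At an unadjusted p under 0.05, 8 of the 11 were lower, as were 5.15% of all genes. In 8 every mutant array lay below every control, as in 8.83% of all genes. Esrp1 had the largest difference of these 11, at -0.48 (SE 0.05, adjusted p = 0.0334 by limma, not called with any 1 array left out). Beside 54.8% of all genes, 5 of 12 lung mesenchyme markers had higher means (median -0.01). At an unadjusted p under 0.05, where 7.34% of all genes were higher and 5.15% lower, 4 of these markers were higher and 0 lower. Their list mean, relative to the controls, was 0.18, 0.12 and 0.12 in mutant replicates 1 to 3, against 0.00078, 0.0028 and -0.0036 in control replicates 1 to 3, and its part beside the mesothelium values was not tested. Dcn, the matrix proteoglycan decorin, rose by 0.54 (SE 0.05, adjusted p = 0.0238, not called with any 1 array left out). Lum, the proteoglycan lumican, had the largest difference of these 12, at 0.61 (SE 0.11, adjusted p = 0.129), and Prrx1, a homeobox factor of mesenchyme, differed by 0.50 (SE 0.10, adjusted p = 0.175), both without overlap. Pdgfra, a growth factor receptor, did not overlap either (0.19, SE 0.05, adjusted p = 0.284). Smooth muscle markers had 1 of 7 higher means (median -0.13). At an unadjusted p under 0.05, 4 of the 7 were lower, as were 5.15% of all genes. In 4 every mutant array lay below every control, as in 8.83% of all genes. Leukocyte markers had 5 of 8 higher means (median 0.21), beside 54.8% of all genes. At an unadjusted p under 0.05, 3 of the 8 were higher and 0 lower, as were 7.34% and 5.15% of all genes. The 3 were Tyrobp (0.33, SE 0.06, adjusted p = 0.149 by limma), Cx3cr1 (0.30, SE 0.05, adjusted p = 0.104) and Fcer1g (0.30, SE 0.06, adjusted p = 0.168). In these 3 every mutant array lay above every control, as in 10.6% of all genes. Values on each array are relative to the other genes on it, and the part of the lower epithelial signal in the higher mesothelium values was not tested.

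**Figure D3:**
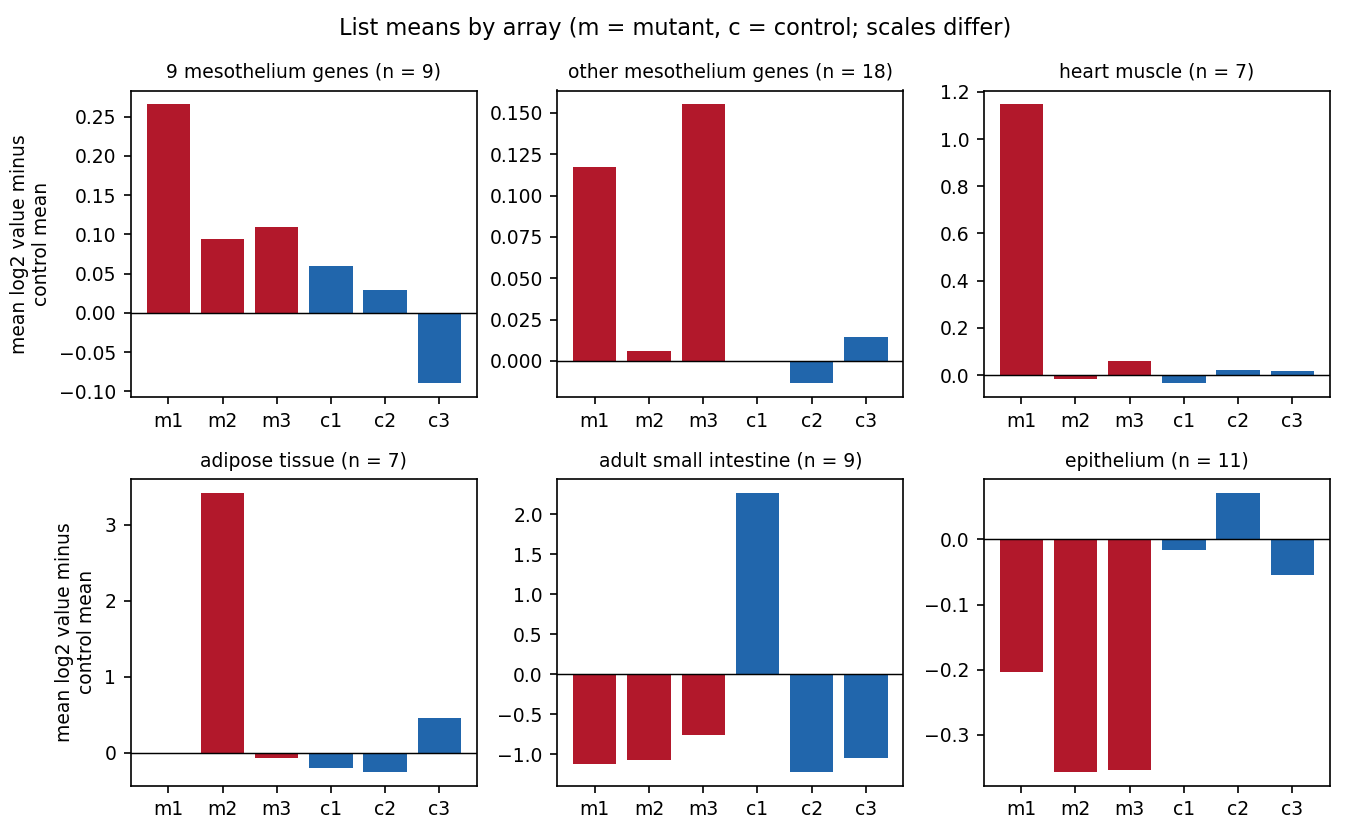
Mean log2 value of 6 gene lists by array, minus the mean of the 3 control arrays (vertical axes in log2 units, with a scale of its own in each panel); m1 to m3 are mutant and c1 to c3 control replicates, and n is the number of genes. The 9 mesothelium genes are highest in m1 (0.27), as are the heart muscle genes (1.15), adipose genes are highest in m2 (3.42), adult small intestine genes in c1 (2.26), and epithelial genes are lower in all 3 mutant arrays.

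Other genes known from mesothelium were mixed. Of 18 measured, 13 had higher and 5 lower means in mutant lungs (median 0.07), and limma called 0, with 4 higher and 1 lower at an unadjusted p under 0.05. Over all genes 54.8% had a higher mean, and 7.34% were higher and 5.15% lower at that p. Efemp1, the matrix protein fibulin-3, had 8.55, 8.78 and 8.90 in mutant and 8.33, 8.38 and 8.23 in control lungs, without overlap (difference 0.43, SE 0.09, adjusted p = 0.182). Tbx18, a T-box factor of the epicardium and of mesothelial descendants, had 8.39, 8.63 and 8.39 in mutant lungs, against 8.01, 8.38 and 7.85 in control lungs. The groups of Tbx18 touched without overlapping (difference 0.39, SE 0.14, adjusted p = 0.331). Podoplanin (Pdpn), a mucin-type protein of mesothelium and lymphatic vessels, differed by 0.30 (SE 0.11, adjusted p = 0.336) with overlap, and the uroplakin-like gene Upk3bl by 0.15 (SE 0.06, adjusted p = 0.354).

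Calretinin (Calb2), a common marker of adult mesothelium, was at 9.11, 8.65 and 9.03 in mutant lungs and 8.31, 8.05 and 9.02 in control lungs, so control replicate 3 reached the mutant level (difference 0.47, SE 0.24, adjusted p = 0.460). The Calb2 difference was 0.75 without control replicate 3 and 0.26 without control replicate 2. Wnt2b, a Wnt ligand made by embryonic lung mesothelium and mesenchyme, differed by 0.28 (SE 0.13, adjusted p = 0.424) with overlap, and by 0.16 without control replicate 1. Aldh1a2, which makes retinoic acid in mesothelium, averaged 10.71 ± 0.08 in mutant and 10.65 ± 0.04 in control lungs (SD, n = 3 each, difference 0.06, 95% interval -0.07 to 0.20, and 0.02 to 0.10 with single arrays left out). Fgf9, the growth factor named above, was at 8.36, 8.23 and 8.23 in mutant lungs, against 8.20, 8.29 and 8.28 in control lungs (difference 0.02, SE 0.06, with overlap). The keratins Krt8 and Krt18, made by mesothelium and by lung epithelium alike, were lower in all mutant arrays than in all controls. Krt8 had 10.28, 10.15 and 10.28 in mutant and 10.72, 10.46 and 10.42 in control lungs (difference -0.30, SE 0.09, adjusted p = 0.288, and -0.16 without both control replicate 1 and mutant replicate 2). Krt18 differed by -0.17 (SE 0.09, adjusted p = 0.455), by -0.08 without mutant replicate 2, and by -0.055 with the mean of all its probe sets. Rspo1 also had a lower mean in mutant lungs (difference -0.16, SE 0.09, adjusted p = 0.492 by limma), with overlap. So did Tcf21 (-0.10, SE 0.09) and Krt19 (-0.09, SE 0.17), both with overlap.

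Genes known as targets or partners of Wt1 in other tissues lay on 1 side: 14 of 14 had slightly higher means in mutant lungs. Differences ran from 0.02 to 0.20 (median 0.09), and over all genes 54.8% had a higher mean. Limma called 0 of the 14, with 2 higher at an unadjusted p under 0.05, as were 7.34% of all genes. The means of 11 lay above the 30th percentile of all genes, and those of Nr0b1, Six2 and Sall1 in the lowest 30%. Without control replicate 1, 11 of 14 had higher means. Cited2, a transcriptional coregulator, had 10.002, 10.05 and 9.97 in mutant lungs, against 9.70, 9.88 and 9.84 in control lungs (difference 0.20, SE 0.06, adjusted p = 0.292), and the difference was 0.13 without both control replicate 1 and mutant replicate 2. Gas1, a surface receptor that helps cells sense hedgehog ligands, differed by 0.16 (SE 0.07, adjusted p = 0.394) with overlap. Several genes of that list are made by other cells of the lung as well.

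Relatives of the 9 genes by family lay on both sides: 7 of 13 had higher and 6 lower means (median 0.02), beside 54.8% of all genes with a higher mean. Limma called 0 of the 13. At an unadjusted p under 0.05, 5 were higher and 2 lower, as were 7.34% and 5.15% of all genes. Gpm6b, the paralog of Gpm6a, had 10.29, 10.12 and 10.11 in mutant and 10.02, 9.96 and 9.97 in control lungs, a difference of 0.18 (SE 0.06, adjusted p = 0.320) in the direction of Gpm6a. Bnc2, the paralog of Bnc1, differed by 0.13 (SE 0.05, adjusted p = 0.396), and Lrrn2, a relative of Lrrn4, by 0.17 (SE 0.06, adjusted p = 0.314). Another Lrrn4 relative, Lrrn3, had lower values in every mutant array, with 9.16, 9.09 and 9.05 in mutant and 9.37, 9.51 and 9.62 in control lungs (difference -0.40, SE 0.07, adjusted p = 0.135).

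Muc1, a mucin of epithelial surfaces, was at 7.13, 7.19 and 7.30 in mutant lungs, and at 7.58, 7.58 and 7.55 in control lungs. All mutant arrays lay below all controls (difference -0.36, SE 0.06, adjusted p = 0.0947), while the mesothelial mucin Muc16 had a higher mean. The bladder uroplakin genes Upk1a and Upk3a had differences of -0.05 (SE 0.06) and 0.02 (SE 0.04), and Upk2 differed by 0.25 (SE 0.08, adjusted p = 0.312) without overlap. Egr1, an immediate early factor that binds G-rich sites like those of Wt1, was at 7.64, 7.76 and 7.63 in mutant and 7.50, 7.37 and 7.42 in control lungs (difference 0.25, SE 0.06, adjusted p = 0.215).

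**Figure D4:**
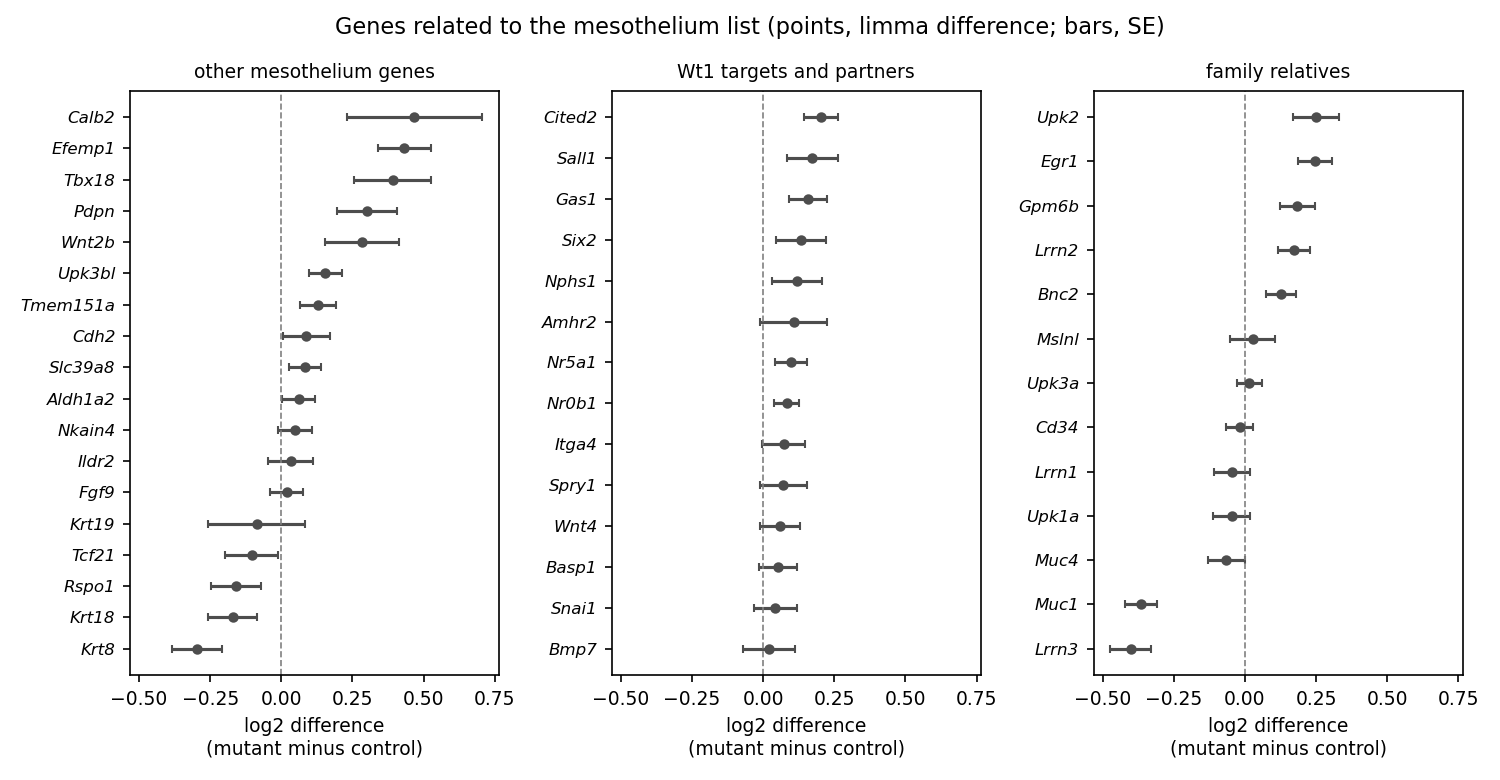
Log2 differences, mutant minus control (horizontal axes), of other mesothelium genes, Wt1 targets and partners, and family relatives of the 9 genes (points, with limma's SE as bars, 3 mutant and 3 control arrays). All 14 Wt1-related genes lie above 0, between 0.02 and 0.20, while Krt8 (-0.30), Muc1 (-0.36) and Lrrn3 (-0.40) lie furthest below it.

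The genes whose profile over the 6 arrays was closest to the average profile of the 9 genes were Emilin2, Ccdc69, Pam, St6galnac4 and Elmod3. Closeness was the root mean square distance between log2 values taken relative to each gene's own mean, and it lay between 0.01 and 0.03 log2 units for these 5. Emilin2, an elastin-associated glycoprotein, had 8.67, 8.50 and 8.52 in mutant lungs, against 8.46, 8.42 and 8.29 in control lungs. Pam, an enzyme that amidates peptides, had 10.48, 10.33 and 10.33 in mutant and 10.23, 10.25 and 10.16 in control lungs. These genes were chosen by this profile, so their values are a description with no test.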

How the data were processed

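RNA of whole lung buds was measured on 6 arrays, 3 mutant and 3 control. The authors deposited 1 table of log2 expression values. The submitters' processing notes name oligo and RMA, a method that corrects background, brings the arrays to a common distribution and summarises probes. Values are therefore relative to the other genes of an array. The log2 scale was inferred from the range of the table (3.55 to 14.04). The sources used here give no versions or filters.

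Probe sets with 1 gene symbol in the platform annotation (23521 of 41345) gave 22180 genes, by the probe set with the highest mean. The test between groups was limma 3.58.1 under R 4.3.3 (functions lmFit and eBayes, group only, two-sided, Benjamini-Hochberg adjusted over all genes, threshold 0.05), checked on simulated data. Differences are mutant minus control. Figures used matplotlib 3.10.9 in Python 3.11.15.

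Genes and lists were chosen with earlier results of these data known. The rule for named genes allowed the 9 genes, Fzd2 and any gene of the 3 related lists (values for those at an unadjusted p under 0.05). From each marker list it allowed the 3 largest differences and any gene highest in 1 array by over 1 log2 unit. It also allowed the 5 closest profiles above the 30th percentile of mean expression. Not every marker gene allowed by the rule was named. Foxf1, Pdgfra, Nppa, Myl4, Nkx2-5 and related genes above that p were named outside it, with their values seen. Predicted symbols were not named. The number of arrays limits precision.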

Additional observations from a re-analysis of the deposited data

How the results depend on the processing

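In 15 alternatives limma called 0 of the 9 genes, with 1 to 5 at an unadjusted p under 0.05, beside 1797 to 3084 of all genes tested. The median difference of the 9 genes stayed between 0.09 and 0.20 (0.09 to 0.20 with each array left out). Of the differences of single mesothelium genes, 6 turned sign: Podxl to 0.0078 after a further quantile normalization, 0.0034 without mutant replicate 2, 0.0095 without mutant replicate 3 and 0.025 without both control replicate 1 and mutant replicate 2, Lrrn4 to -0.010 without mutant replicate 1, and Upk1b to -0.063 without control replicate 3. With each array left out, Podxl reached -0.090, Lrrn4 0.228 and Upk1b 0.44 at the other end, and Upk1b was at 0.468 without both control replicate 1 and mutant replicate 2. After median centring, 1 of the 9 genes in place of 3 had all mutant arrays above all controls. Without control replicate 1, with fewer controls to lie above, it was 5. No share over all genes is set beside the counts of 1 and 5, so how far all genes moved with them is not known.

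The count of 14 called genes was 8 after a further quantile normalization, 24 after median centring, 25 over genes above the 30th percentile, 26 with an intensity trend and 26 with robust eBayes. It was 0 by limma with each array left out, lowest and highest alike, and 0 without both control replicate 1 and mutant replicate 2, where between 1797 and 3084 genes had an unadjusted p under 0.05. Of the 135 genes of the other lists 2 were called (Esrp1 and Dcn), against 1 after a further quantile normalization, 4 with an intensity trend and 0 by limma in each fit with arrays left out. With the replicate number as a block, limma called 0 genes and 0 of the other lists (2511 genes at an unadjusted p under 0.05). Same-numbered arrays did not deviate together (correlations of -0.04, -0.06 and 0.07), so the numbers were not taken as pairs. Each of the 9 genes has 1 probe set, so no other probe set could be tried. Signal over background is not given, which leaves it unknown how far dim genes such as Msln were measured.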
